A study of Mus musculus with 10 samples.

Results

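The genes described here encode the steps by which pyruvate enters mitochondria and is oxidised in the TCA cycle, with the malate and aspartate enzymes that exchange reducing equivalents between cytosol and mitochondrion. They were 32 genes chosen by name, among them *Idh3b*, a hub gene of a co-expression module built on these same mice, and all 32 had a row among the 22000 genes of the count table. RNA-seq measured their transcripts in the prefrontal cortex (PFC) of 5 *Zbtb16* KO and 5 WT mice, all labelled male and 7 weeks old. The KO mice came from the strain B6.C3-*Zbtb16* lu/J and were homozygous for the *lu* allele, a point mutation in the gene of a zinc finger transcription factor, carried in every cell from conception. The origin of the WT mice used for RNA-seq is not given in the sources used here. The *lu* allele was bred onto the B6 background from another strain, so an effect of *lu* and one of neighbouring chromosome 9 sequence carried with it cannot be told apart.

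Pyruvate, the end product of glycolysis, crosses the inner mitochondrial membrane through a carrier made of MPC1 and MPC2. The pyruvate dehydrogenase complex then turns it into acetyl-CoA, a step that kinases (PDK) switch off and phosphatases (PDP) switch on. Citrate synthase joins acetyl-CoA to oxaloacetate, and the dehydrogenases of the cycle pass the electrons on to the respiratory chain, the main source of ATP in neurons. In brain the same intermediates also feed the synthesis of glutamate and GABA, and the malate-aspartate exchange is the main route for cytosolic NADH into neuronal mitochondria.

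The 250 bases before the RefSeq start of a gene are shown for a few of the genes, because the only motif found in most of them was the CCAAT box, the binding motif of the factor NF-Y. RefSeq promoters of GRCm38.p6 were matched for 29 of the 32 genes, all but *Pdp1*, *Idh3a* and *Sdhc*. CCAAT, or ATTGG on the other strand, occurred in 18 of the 29 (62.1%), against 35.93% of all 15153 promoters of this length and 36.05% of the 10712 promoters of tested genes. In 9 of the genes it occurred at least 2 times, which was not counted over all promoters. Capitals below mark CCAAT or ATTGG and, in *Pcx*, the E-box CACGTG. *Got1* had the most matches (5), *Pcx* and *Fh1* had 3 and 2, and *Acly* had none. Others without a match included *Dlst* and *Sucla2*, with log2 fold changes of KO against WT of 0.036 and -0.066. A link between the motif and the levels was not tested. For *Idh3b* only 30 bases around its single match are given, because these 250 bases run into the first exon of the longer Gencode M21 model. The match lies before the RefSeq start but inside that model's exon.
*Got1*, chr19:43524606-43524855, minus strand: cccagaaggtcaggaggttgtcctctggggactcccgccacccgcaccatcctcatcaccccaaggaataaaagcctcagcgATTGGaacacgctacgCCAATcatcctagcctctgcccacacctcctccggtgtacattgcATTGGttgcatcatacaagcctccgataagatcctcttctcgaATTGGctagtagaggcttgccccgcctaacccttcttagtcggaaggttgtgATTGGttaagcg
*Pcx*, chr19:4510222-4510471, plus strand: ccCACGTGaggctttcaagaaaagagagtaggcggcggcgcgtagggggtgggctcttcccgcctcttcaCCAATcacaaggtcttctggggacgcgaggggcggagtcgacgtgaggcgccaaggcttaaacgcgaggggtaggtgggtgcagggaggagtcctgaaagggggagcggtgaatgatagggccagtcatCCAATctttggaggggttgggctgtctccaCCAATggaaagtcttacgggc
*Fh1*, chr1:175625636-175625885, minus strand: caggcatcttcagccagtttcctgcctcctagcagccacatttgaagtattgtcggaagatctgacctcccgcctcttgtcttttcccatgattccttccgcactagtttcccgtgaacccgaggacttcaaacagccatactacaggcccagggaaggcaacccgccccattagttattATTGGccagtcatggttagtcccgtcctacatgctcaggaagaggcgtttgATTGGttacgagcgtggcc
*Acly*, chr11:100528001-100528250, minus strand: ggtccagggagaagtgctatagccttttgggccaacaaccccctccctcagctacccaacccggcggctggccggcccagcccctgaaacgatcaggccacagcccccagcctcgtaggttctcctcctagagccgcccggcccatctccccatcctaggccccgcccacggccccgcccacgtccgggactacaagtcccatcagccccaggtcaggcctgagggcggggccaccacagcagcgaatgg
*Idh3b*, chr2:130284510-130284539, minus strand: tacacaccgccgATTGGtacgggagaaaga

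Other motifs, each read on both strands, were found in at most 3 of the 29 genes. The ETS motif CCGGAAG was found in *Sdhd*, *Mpc1* and *Idh3g* (10.3%, against 9.62% of all promoters and 12.66% of those of tested genes). The E-box CACGTG was found in *Pdk2* and *Pcx* (6.9%, against 6.96% and 8.18%). The YY1 motif AAGATGGCG was found in *Idh3g* alone (3.4%, against 0.77% and 1.05%) and TATAAA in *Got2* alone (3.4%, against 11.79% and 6.32%). The NRF1 motif and the estrogen-related receptor motif TCAAGGTCA were found in none. These matches are descriptions of the letters in the window.

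Between 30220122 and 51231439 counts were obtained per mouse, so that 3 counts, the least taken as detection, stood for 0.0586 to 0.0993 CPM (counts relative to the library total, here without and, unless stated, elsewhere with TMM normalization). All 32 genes lay far above this limit. *Zbtb16* transcript was reduced but not lost, at 47.4 ± 4.96 CPM in KO mice and 79.0 ± 7.23 CPM in WT mice (SD, n = 5 each; log2 fold change -0.67, edgeR, adjusted p = 2.8e-05). KO mouse 3 is labelled male but had 1 count over 4 Y-linked genes, where the other mice had 4376 to 8182. Its values are kept under its label, and results are also given without it. RNA integrity (RIN) fell into separate classes, 9.5 or above in 6 mice (3 KO, 3 WT) and 8.3 or below in 4 (2 KO, 2 WT). Markers of excitatory neurons summed to 7192 to 8558 CPM in KO mice and 7130 to 7823 CPM in WT mice, and markers of striatal medium spiny neurons to 278.4 to 410.8 and 249.8 to 487.6 CPM. In bulk tissue, fewer cells of a type and less RNA per cell cannot be told apart.

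None of the 32 genes differed between KO and WT mice at an adjusted p under 0.05 (edgeR with genotype and 3 surrogate variables as terms, Benjamini-Hochberg adjustment over 14344 genes), where 0.844% of all tested genes were called. The lowest adjusted p of a member was 0.228, for *Idh3b*. An unadjusted p under 0.05 was reached by 3 of them (9.38%), *Idh3b* and *Idh3a* lower and *Acly* higher in KO mice, against 10.6% of all tested genes. In the same 3 genes the CPM ranges of the genotypes were separate (9.38%, against 1.58% of all tested genes). With CPM on library totals *Dld* joined them. *Idh3b* entered the list as a hub gene found on these same mice, and all tested genes were not matched for spread between mice. The shares of separate ranges are thus descriptions. Without KO mouse 3, again none was called and 3 had an unadjusted p under 0.05. Over all 14440 genes tested in that fit, 54 were called and 1246 had such a p.

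The differences were small in both directions. Of the 32 log2 fold changes, 16 lay below and 16 above 0, with a median of 0.0012, and 51.9% of all tested genes lay below 0, with a median of -0.0044. Only *Mpc1* exceeded 0.1 in size. Every 95% interval lay between -0.215 (*Mpc1*) and 0.208 (*Suclg2*), that is between 86.2% and 116% of the WT level, and 29 of the 32 intervals held 0. The median standard error was 0.039, against 0.068 over all tested genes. That set holds genes of lower counts and was not matched for level, so the difference is not particular to these genes. Mice of one genotype also differed little in these genes, with a median coefficient of variation of 3.7% in WT and 3.9% in KO mice, against 5.36% and 6.08% for the 7862 tested genes in the same range of CPM. That range ran from 19.81 to 804.8 CPM in WT mice, and levels were not matched within it.

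**Figure D1:**
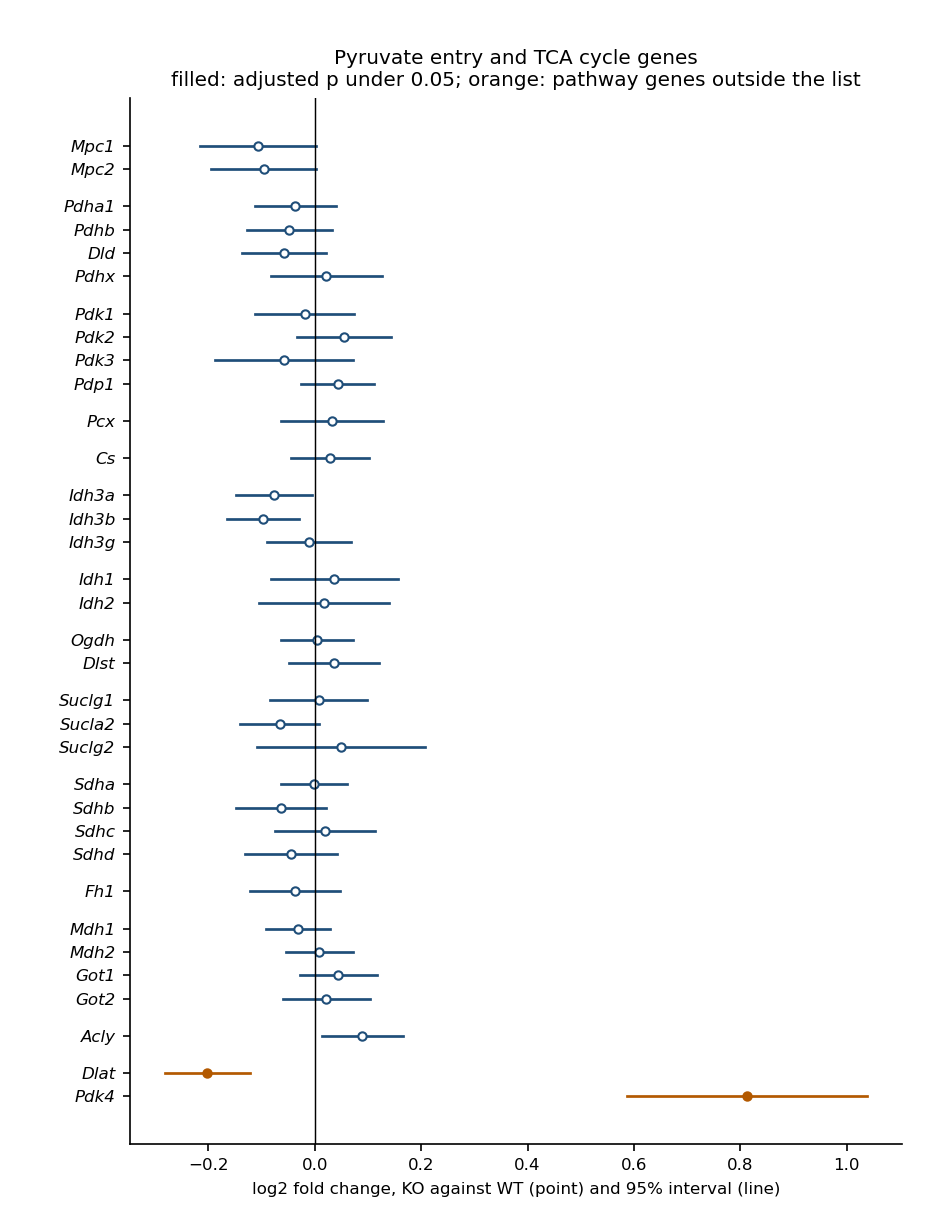
Log2 fold change of KO against WT mice (x axis) with its 95% interval for each of the 32 genes, grouped by role, and for *Dlat* and *Pdk4*, genes of the same steps outside the list (orange). Filled points have an adjusted p under 0.05, which only the orange genes reach, while all intervals of the 32 stay between -0.215 and 0.208.

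The NAD-dependent isocitrate dehydrogenase is made of a catalytic subunit, IDH3A, and the subunits IDH3B and IDH3G, and catalyses a rate-limiting step of the cycle. *Idh3b* (GRCm38 chromosome 2, 130279309 to 130284547, minus strand) had 190.9, 186.2, 185.3, 190.0 and 188.6 CPM in KO mice 1 to 5 and 198.4, 205.3, 203.7, 201.0 and 201.9 CPM in WT mice 1 to 5. The highest KO mouse lay below the lowest WT mouse, and the level in KO mice was 93.1% of that in WT mice. The log2 fold change was -0.097 (standard error 0.032, edgeR, unadjusted p = 0.00765, adjusted p = 0.228). Its spread within a genotype was among the smallest of the list, at a coefficient of variation of 1.3% in each. As the study picked *Idh3b* as a hub on these mice, the difference is a description of them. When single mice were left out the value ranged from -0.10 to -0.085, and it was -0.091 without KO mouse 3 (adjusted p = 0.477).

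*Idh3a* (chromosome 9 from 54586334 to 54604661, plus strand) was measured at 240.0, 220.4, 239.7, 236.4 and 222.7 CPM in KO mice and at 240.8, 255.1, 254.1, 249.5 and 244.1 CPM in WT mice. The groups did not overlap, by less than 1 CPM between KO mouse 1 and WT mouse 1. The log2 fold change came to -0.077 (standard error 0.034, edgeR, adjusted p = 0.431). *Idh3a* lies 5.75 Mb from *Zbtb16*. *Idh3g*, on the X chromosome, showed no such gap, with 112.7, 108.0, 108.1, 110.2 and 117.2 CPM in KO mice and 115.0, 104.5, 112.3, 113.2 and 109.3 CPM in WT mice (log2 fold change -0.010, standard error 0.037, edgeR, adjusted p = 0.960). The exons of *Idh3b* share 5 bases with those of *Nop56* on the other strand, and *Nop56* had a log2 fold change of -0.093 (edgeR, adjusted p = 0.529). Since no source says whether the counting used strand, reads on such bases are uncertain, as are those on 603 bases shared by *Pdha1* with *Map3k15* and 52 shared by *Mdh1* with *Wdpcp*. No exon of 27 of the 32 genes overlaps another gene.

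Ratios of a pair of transcripts within one library need no scaling between libraries, and 13 were compared within complexes and isoenzyme pairs. For *Idh3b* to *Idh3g* counts, the log2 ratio was 0.759 ± 0.042 in KO against 0.867 ± 0.071 in WT mice (SD, n = 5 each). All KO mice lay below all WT mice, the nearest at 0.786 and 0.787, a difference of means of -0.108 (exact two-sided permutation test, p = 0.00794, the smallest that 5 mice against 5 allow, adjusted p = 0.103 over the 13 ratios). As *Idh3b* was picked as a hub on these same mice, the ratios with *Idh3b* are descriptions of them. *Idh3a* to *Idh3g* differed by a like amount, -0.107, with overlapping groups (exact permutation test, p = 0.0794, adjusted p = 0.258). *Idh3b* to *Idh3a* differed by -0.001 (exact permutation test, p = 0.984). Of the other ratios, cytosolic to mitochondrial malate dehydrogenase, *Mdh1* to *Mdh2*, had the smallest p, with a difference of -0.075 (exact permutation test, p = 0.0476, adjusted p = 0.258), and *Sucla2* to *Suclg2*, the ATP- and GTP-forming forms of succinyl-CoA ligase, differed by -0.142 (exact permutation test, p = 0.0794, adjusted p = 0.258). No ratio passed the adjustment.

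**Figure D2:**
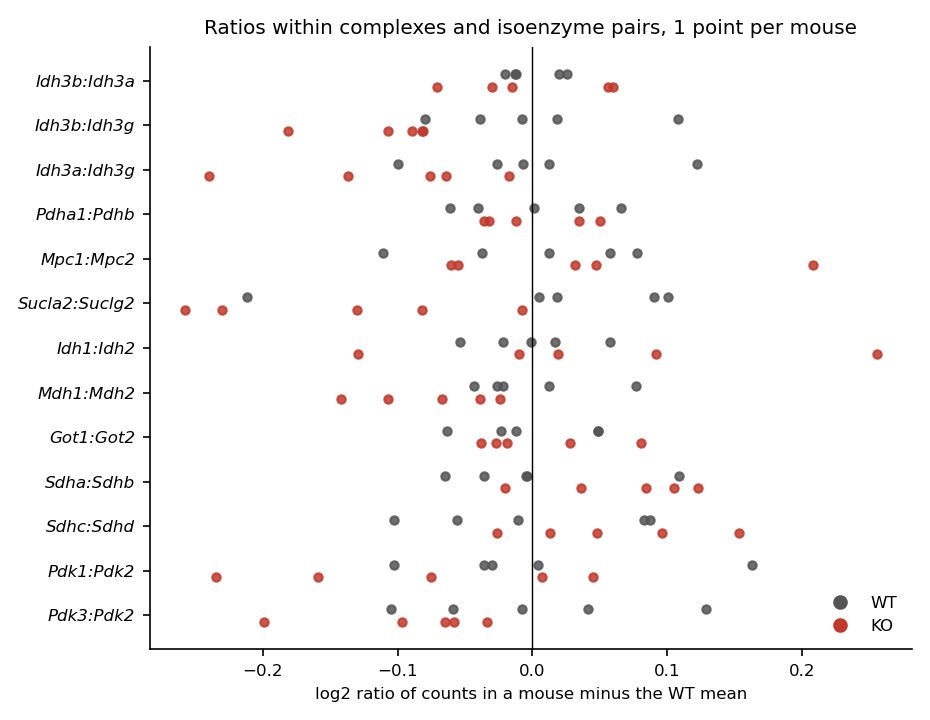
Log2 ratio of counts of a pair of genes in each mouse, minus the mean of the WT mice (x axis), for the 13 ratios, with KO mice in red and WT mice in grey. Only for *Idh3b* to *Idh3g* do all KO mice lie below all WT mice, at 0.69 to 0.786 against 0.787 or above before centring.

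*Acly* encodes ATP citrate lyase, which returns citrate to acetyl-CoA in the cytosol for lipid synthesis and acetylation. It was measured at 210.1, 202.3, 205.5, 200.6 and 200.9 CPM in KO mice and at 188.9, 178.7, 194.5, 195.9 and 195.4 CPM in WT mice. Every KO mouse lay above every WT mouse, and the level in KO mice was 107% of that in WT mice. The log2 fold change was 0.089 (standard error 0.036, edgeR, unadjusted p = 0.0247, adjusted p = 0.364). The NADP-dependent isocitrate dehydrogenases, *Idh1* in the cytosol and *Idh2* in mitochondria, had log2 fold changes of 0.037 and 0.017, with overlapping groups.

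Among the genes of pyruvate entry, 7 of 11 log2 fold changes lay below 0, with a median of -0.037. The carrier subunits had the lowest unadjusted p-values there. *Mpc1* was measured at 67.4, 65.2, 59.7, 64.6 and 74.6 CPM in KO mice and at 73.6, 73.9, 68.3, 68.7 and 69.6 CPM in WT mice. KO mouse 5 had the highest value of all, and the other KO mice the 4 lowest (log2 fold change -0.11, standard error 0.051, edgeR, unadjusted p = 0.0548, adjusted p = 0.484). *Mpc2* was measured at 63.2, 61.7, 60.3, 65.0 and 62.6 CPM in KO mice and at 68.4, 77.3, 65.6, 63.1 and 69.2 CPM in WT mice. WT mouse 4 lay within the KO range and WT mouse 2 well above it (log2 fold change -0.096, standard error 0.047, edgeR, unadjusted p = 0.0566, adjusted p = 0.488).

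The subunits of the pyruvate dehydrogenase complex in the list had mean levels of 94.4% to 100% of those in WT mice. *Pdha1* and *Pdhb*, which encode the E1 subunits, had log2 fold changes of -0.037 and -0.048, *Dld*, the E3 subunit that the oxoglutarate dehydrogenase complex also uses, -0.058, and *Pdhx*, the E3-binding protein, 0.022. Of the kinases, *Pdk2* had a log2 fold change of 0.055, *Pdk1* -0.019 and *Pdk3* -0.058. *Pcx*, pyruvate carboxylase, which refills oxaloacetate and in brain is mainly an astrocyte enzyme, had one of 0.032. The phosphatase gene *Pdp1* varied most between mice, from 153.5 CPM in KO mouse 5 to 273.8 CPM in KO mouse 1, against 218.1 to 275.6 CPM in WT mice. Its mean was lower in KO mice (225.0 ± 44.7 CPM against 241.1 ± 22.2 CPM, SD, n = 5 each), while its log2 fold change was 0.043 with the surrogate variables and -0.10 without them, not called in either fit.

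In the TCA cycle 8 of 14 log2 fold changes lay below 0, with a median of -0.006 and a range of -0.097 to 0.050. *Sucla2* was measured at 155.9, 141.3, 148.6, 165.5 and 154.7 CPM in KO mice and at 161.0, 173.4, 161.1, 156.3 and 168.8 CPM in WT mice. Only KO mouse 4 and WT mice 1, 3 and 4 crossed (log2 fold change -0.066, standard error 0.035, edgeR, unadjusted p = 0.0757, adjusted p = 0.536). *Suclg1* and *Suclg2*, the other subunits of succinyl-CoA ligase, had log2 fold changes of 0.008 and 0.050. *Sdha*, the flavoprotein of succinate dehydrogenase, was among the most even genes of the list, at 392.9 ± 4.34 CPM in KO mice and 393.3 ± 3.06 CPM in WT mice (SD, n = 5 each). The other subunits, *Sdhb*, *Sdhc* and *Sdhd*, had log2 fold changes of -0.063, 0.019 and -0.045, and *Sdhd* lies 1.76 Mb from *Zbtb16*. *Cs*, citrate synthase, had a log2 fold change of 0.028, *Ogdh* and *Dlst* of the oxoglutarate dehydrogenase complex 0.004 and 0.036, and *Fh1*, fumarase, -0.037.

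Of the malate-aspartate enzymes, 1 of 4 log2 fold changes lay below 0. *Mdh1* had a log2 fold change of -0.032, *Mdh2* 0.008, and the aspartate aminotransferases *Got1* and *Got2* 0.044 and 0.022, all with overlapping groups.

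**Figure D3:**
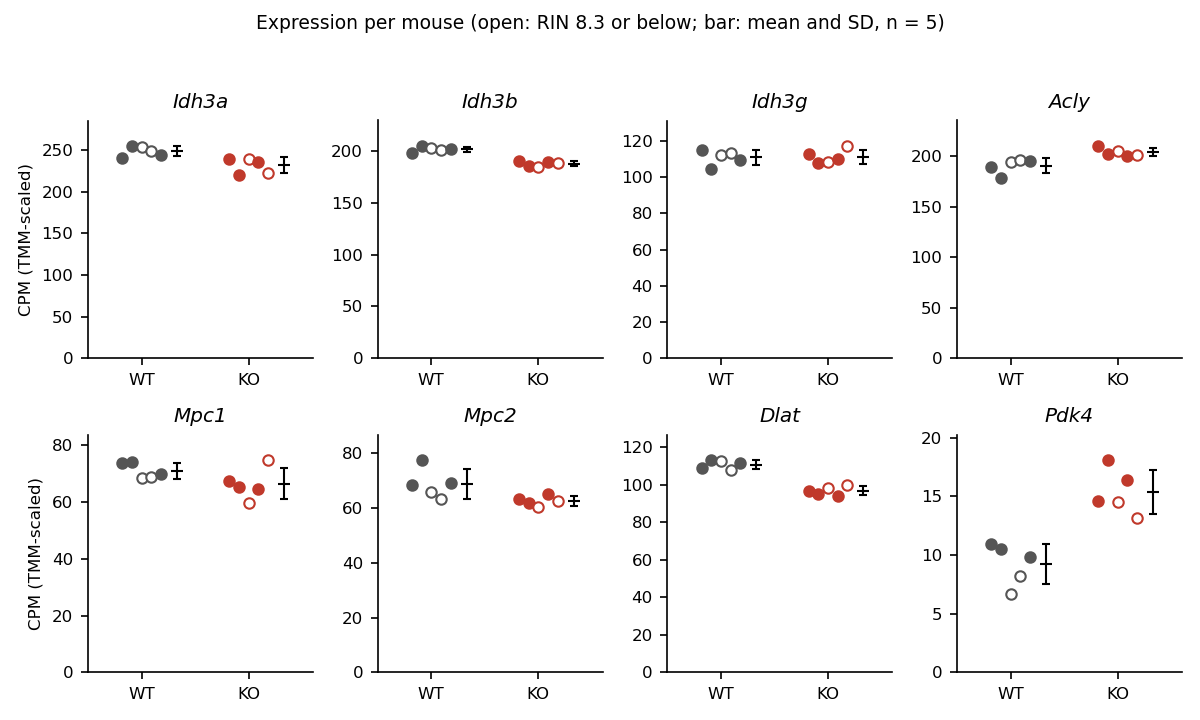
Expression in CPM (y axes, from 0) of 6 of the listed genes and of *Dlat* and *Pdk4*, with 1 point per mouse, open where the RIN was 8.3 or below, and a bar for mean and SD (n = 5). KO and WT points of *Idh3a*, *Idh3b*, *Acly*, *Dlat* and *Pdk4* do not overlap, and the gap is widest relative to the level in *Pdk4*, at 13.2 to 18.1 CPM in KO and 6.71 to 10.9 CPM in WT mice.

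Levels per length were compared in WT mice as CPM per kb of exon. The length joins the exons of all annotated transcripts of a gene, whether or not they are used in PFC. The 32 genes ranged from 4.29 (*Suclg2*) to 314 (*Mdh1*) CPM per kb, and 31 of them exceeded the median of 5.56 over 13602 tested genes with a length. After *Mdh1* came *Got1* (134 ± 3.73), *Sdha* (95.3 ± 0.742), *Pdha1* (74.9 ± 2.96) and *Mdh2* (70.3 ± 0.479 CPM per kb; SD, n = 5), so that malate-aspartate enzymes held 3 of the first 5 places. At the low end, *Mpc2*, *Pdk3* and *Pdk1* lay at 9.36 to 11.6 CPM per kb. The place of *Mpc2* rests on its length of 7.344 kb. At a like WT mean (68.73 against 70.83 CPM), *Mpc1* with 2.082 kb had 34.0 CPM per kb. Of the 31 pairs of neighbours in this order, 19 had overlapping ranges over the WT mice, so their order is not set by these data. Within the NAD-dependent isocitrate dehydrogenase the order was *Idh3b* (59.0 ± 0.767), *Idh3a* (49.0 ± 1.22) and *Idh3g* (41.0 ± 1.52 CPM per kb; SD, n = 5). Before division by length *Idh3a* stood above *Idh3b* in WT mice, at 248.7 against 202.1 CPM. The order of these 2 thus rests on the lengths, 5.072 kb for *Idh3a* and 3.422 kb for *Idh3b*.

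**Figure D4:**
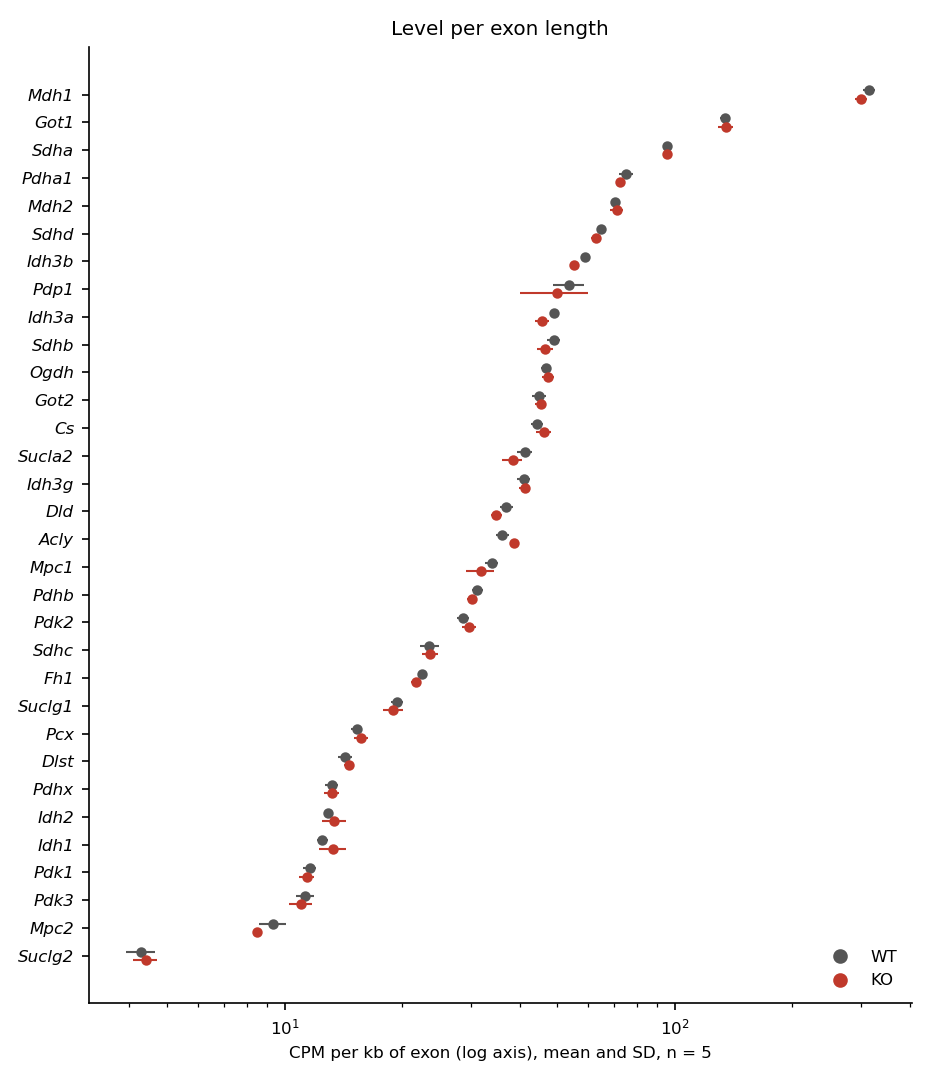
Level of each of the 32 genes in CPM per kb of exon (log axis), as mean and SD over 5 WT mice (grey) and 5 KO mice (red), ordered by the WT mean. *Mdh1* lies highest at 314 CPM per kb and *Suclg2* lowest at 4.29 CPM per kb in WT mice.

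RNA integrity moved none of these genes past the threshold. Between mice with a RIN of 9.5 or above and mice with 8.3 or below, with genotype in the model, no member was called, where 0.335% of all tested genes were (edgeR's test), and no member had an unadjusted p under 0.05. Within the classes, 14 genes were lower in KO mice in both, 7 were higher in both and 11 had opposite signs. *Idh3b* differed by -0.095 in the high and -0.11 in the low class on the log2 scale, *Idh3a* by -0.087 and -0.12, and *Acly* by 0.12 and 0.058. *Pdp1* differed by -0.014 in the high class and by -0.28 in the low class, which holds KO mouse 5.

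Other genes of the same steps were read from the same fit over a list of 44, of which 43 were tested and *Csl* was not. At an adjusted p under 0.05, 1 was higher and 1 lower in KO mice, where 0.844% of all tested genes were called. Of the 43 log2 fold changes, 25 lay below 0, with a median of -0.014. Over all tested genes 51.9% lay below 0, with a median of -0.0044. *Pdk4*, the kinase isoform known to rise in fasting and with fatty acid use, was measured at 14.6, 18.1, 14.6, 16.4 and 13.2 CPM in KO mice and at 10.9, 10.5, 6.71, 8.23 and 9.81 CPM in WT mice. Every KO mouse lay above every WT mouse, and the mean CPM of *Pdk4* in KO mice was 166% of that in WT mice. In the fit with surrogate variables the log2 fold change was 0.81 (standard error 0.107, edgeR, adjusted p = 0.00131). Levels of *Pdk4* per length were nonetheless low, at 2.63 CPM per kb in WT mice against 28.7 for *Pdk2*.

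*Dlat*, the E2 subunit of the pyruvate dehydrogenase complex, was measured at 96.73, 95.03, 98.50, 94.21 and 99.94 CPM in KO mice and at 108.9, 113.2, 113.0, 107.9 and 111.7 CPM in WT mice. The groups were well apart, and the mean CPM of *Dlat* in KO mice was 87.3% of that in WT mice. In the fit with surrogate variables the log2 fold change was -0.20 (standard error 0.038, edgeR, adjusted p = 0.0147). *Dlat* (chromosome 9 from 50634633 to 50659780, minus strand) lies 1.8 Mb from *Zbtb16*, so an effect of *lu* and one of the chromosome segment carried with it cannot be told apart. Without KO mouse 3 both calls held, with adjusted p-values of 0.0497 for *Dlat* and 0.0105 for *Pdk4* in edgeR's test. The *Dlat* call was lost without KO mouse 1 (edgeR, adjusted p = 0.0685), KO mouse 4 (0.0771), WT mouse 3 (0.118) or WT mouse 5 (0.0669), while *Pdk4* was called in each of the 10 such fits. The log2 fold changes without 1 mouse stayed at -0.21 to -0.19 for *Dlat* and 0.70 to 0.92 for *Pdk4*. Both were called without surrogate variables (edgeR, adjusted p = 0.0484 for *Dlat* and 0.0316 for *Pdk4*) and with 1 or 2 of them. They were also called with RIN as the covariate, with RLE normalization, without the low-count filter and by DESeq2 (adjusted p = 0.000516 and 2.05e-09). With the replicate number as a covariate only *Pdk4* was called. With a score of striatal markers in place of the surrogate variables neither was called, at log2 fold changes of -0.20 for *Dlat* and 0.70 for *Pdk4* (edgeR, adjusted p = 0.101 and 0.0822). Nor was either called by limma on log2(CPM + 1), at -0.20 and 0.76 (adjusted p = 0.193 and 0.0764). Within a RIN class, in fits that also dropped the surrogate variables, neither was called, at -0.22 and 0.65 in the high class (edgeR, adjusted p = 0.249 and 0.093) and -0.15 and 0.89 in the low class, 2 mice against 2 (edgeR, adjusted p = 0.865 and 0.622).

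*Gls2*, a glutaminase that feeds glutamate to the cycle and another hub gene of that module, had no overlap between the genotypes, at 24.7 ± 1.62 CPM in KO and 29.8 ± 1.53 CPM in WT mice (SD, n = 5 each; log2 fold change -0.22, edgeR, adjusted p = 0.0976). *Gpt2*, *Sdhaf4* and *Lipt2*, next by p-value, had log2 fold changes of 0.15, 0.18 and -0.30 (edgeR, adjusted p = 0.366, 0.479 and 0.490). Of 15 glycolysis genes (median log2 fold change 0.028), 2 in each direction had an unadjusted p under 0.05, against 10.6% of all tested genes. None was called, where 0.844% of all tested genes were. Nor was any of 10 regulators of mitochondrial and metabolic genes, of which 7 lay below 0, with a median of -0.009 and none with an unadjusted p under 0.05.

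Markers of 11 cell types were read beside these genes, and none was called in edgeR's test. Of all tested genes 0.844% were called, and 10.6% had an unadjusted p under 0.05. All 6 interneuron markers lay below 0 (median log2 fold change -0.072, 3 with an unadjusted p under 0.05), with summed levels of 722.9 to 816.4 CPM in KO and 784.5 to 864.8 CPM in WT mice. Striatal markers lay above 0 in 4 of 6 (median 0.19, 3 with an unadjusted p under 0.05). Oligodendrocyte precursor markers lay above 0 in 3 of 3, with summed levels of 151.7 to 183.4 and 144.5 to 158.3 CPM. Oligodendrocyte markers lay below 0 in 5 of 6 (median -0.053), with summed levels of 5953 to 8619 and 6160 to 7747 CPM. Mural cell markers lay below 0 in 5 of 5, meningeal fibroblast markers in 4 of 5, endothelial markers in 3 of 5 and microglial markers in 2 of 5 tested. Of 6 markers each, 5 lay above 0 for astrocytes (median 0.081) and 5 for excitatory neurons (median 0.049), with 2 at an unadjusted p under 0.05 in each list. Choroid plexus markers lay below 0 in 3 of 3 and summed to at most 3.44 CPM in any mouse. The part of these cell types in the differences above was not tested. The striatal score was used only in place of the surrogate variables, so it does not isolate a cell type. Under it *Idh3b* kept its sign, and *Dlat* and *Pdk4* were no longer called. No member was called, as in the main fit.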

How the data were processed

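Total RNA of the PFC was sequenced as 1 stranded, paired-end mRNA library per mouse. Per the authors, alignment was to mm10 (STAR 2.7.1a), and unique alignments were counted over exons (HTSeq 0.9.1) against the coding part of Gencode M21. The deposited table holds these raw counts. Whether counting used strand is not given in the sources used here.

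Groups were taken from the labels. After TMM scaling and edgeR's low-count filter (edgeR 4.0.16, R 4.3.3), 14344 genes were tested with its quasi-likelihood F-test. P-values were adjusted over all of them (Benjamini-Hochberg, 0.05). Beside genotype, 3 surrogate variables entered the model, found by sva (3.50.0, seed 1, its default number) from log2(CPM + 1), with CPM on library totals, without TMM. The study also used surrogate variables, and their number is not given in the sources used here. DESeq2 (1.42.0) and limma (3.58.1) were alternatives. RIN classes were compared in a fit with genotype. Log2 ratios of counts plus 0.5 were compared by exact permutation tests (scipy 1.17.1). The scripts were tested on simulated data. Without molecular identifiers, detection limits reflect counting error alone. Over 45 pairs of libraries the lowest chi-square per degree of freedom was 5.67, so none was counted as 1 sample with another. No source states the litter or cage of each mouse.

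The genes and lists were chosen with earlier results of these data known. Values per mouse are given for genes of the list that were called or did not overlap between genotypes, for the subunits of NAD-dependent isocitrate dehydrogenase and for the 3 with the smallest unadjusted p after these. Of the other genes of the pathway, those called and the 4 with the smallest unadjusted p are named. *Nop56* was named after its values were seen. Positions and exon lengths are from Gencode M21 (GRCm38), and 88.7% of the genes had a length. Alternatives covered the surrogate variables, RIN, a striatal marker score and the replicate number as covariates, the tool, the normalization, the filter, the RIN classes and leaving out each mouse.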

Additional observations from a re-analysis of the deposited data

Results flagged for a closer look

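In each genotype, the highest or lowest mouse was set against the spread of the other 4 by Dixon's criterion (a gap over 0.71 of the range). Of 64 such groups over the 32 genes, 3 held a mouse apart from the others, and chance gives about 1 in 20. *Cs*, citrate synthase, was at 240.8 CPM in WT mouse 2, where the other WT mice had 259.2 to 262.3 CPM. *Idh1* was at 36.56 CPM in WT mouse 4, where the others had 33.75 to 34.41 CPM. *Mdh1* was at 719.9 CPM in KO mouse 2, where the others had 774.3 to 793.9 CPM. Of 26 groups over the ratios, 1 held such a mouse, as the log2 ratio of *Idh3b* to *Idh3g* was 0.69 in KO mouse 5, where the other KO mice had 0.76 to 0.786. Without that mouse the ratio differed between the genotypes by -0.0895 (exact permutation test, adjusted p = 0.206).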

How the results depend on the processing

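No member was called under any of the 22 alternatives, where the lowest adjusted p was 0.177, for *Idh3b* without WT mouse 1 (edgeR). The number of genes called over the table depended on the model. It was 121 as reported, 30 without surrogate variables, 34 with 1, 57 with 2, 38 with RIN as the covariate, 16 with the striatal score, 233 with DESeq2, 8 with limma, 1 in mice with a RIN of 9.5 or above and 0 in the 4 mice with 8.3 or below (813 at an unadjusted p under 0.05), both without surrogate variables, and 39 to 248 without 1 mouse. The fit on those 4 mice and the other CPM scales were chosen after seeing the data. Other pathway genes called numbered 2 as reported, 0 with the striatal score, with limma and in either RIN class, and 1 or 2 without 1 mouse. The median of the members, 0.0012, became -0.024 with the striatal score and lay between -0.0114 and 0.00504 without 1 mouse. *Idh3b* kept its sign throughout, at -0.102 to -0.0848 without 1 mouse. The labels do not say whether the replicate numbers pair the mice. Correlations of deviations between same-numbered mice ran from -0.11 to 0.17, which cannot show whether such mice shared a litter or cage. With the replicate block, 24 genes, no member and 1 other pathway gene, *Pdk4*, were called. The causes were not tested.

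Of 704 member values under the alternatives, 61 turned sign, in 18 genes, of which *Sdhb* had the log2 fold change farthest from 0 as reported (-0.063), and 14 genes never did. Without surrogate variables the turned values were -0.10 for *Pdp1*, 0.0057 for *Idh3g* and -0.025 for *Suclg1*. With 1 surrogate variable the turned values were -0.00016 for *Suclg1*, -0.0057 for *Sdhc* and -0.0052 for *Mdh2*. With 2 surrogate variables the turned values were -0.0024 for *Suclg1*, -0.0066 for *Sdhc* and -0.0044 for *Mdh2*. With RIN as the covariate the turned values were -0.10 for *Pdp1*, 0.0051 for *Idh3g* and -0.026 for *Suclg1*. With the striatal score the turned values were -0.033 for *Pdp1*, 0.0071 for *Idh3g*, -0.024 for *Suclg1* and -0.025 for *Sdhc*. With the replicate block the turned values were -0.12 for *Pdp1*, 0.0054 for *Idh3g* and -0.026 for *Suclg1*. With DESeq2 the turned values were 0.00020 for *Sdha*. With RLE normalization the turned values were 0.00022 for *Sdha*. Without the filter the turned values were 0.0052 for *Sdha*. In the high RIN class the turned values were -0.041 for *Pdhx*, 0.016 for *Pdk3*, -0.013 for *Pdp1*, 0.012 for *Idh3g*, -0.00052 for *Suclg2*, -0.011 for *Sdhc* and -0.0091 for *Mdh2*. In the low RIN class the turned values were 0.058 for *Pdk1*, -0.0011 for *Pdk2*, -0.25 for *Pdp1*, -0.025 for *Pcx*, 0.00052 for *Idh3g*, -0.033 for *Idh2*, -0.11 for *Suclg1* and 0.0019 for *Sdhb*. Other genes had a value that turned without 1 mouse, and their ranges over all such fits, turned or not, follow. *Pcx* ran from -0.0089 to 0.059, *Cs* from -0.0021 to 0.042, *Idh2* from -0.014 to 0.062 and *Ogdh* from -0.023 to 0.018. *Suclg1* ran from -0.017 to 0.058, *Sdha* from -0.0077 to 0.0069 and *Got2* from -0.0051 to 0.038. *Idh3g* ran from -0.033 to 0.0055, *Pdk1* from -0.046 to 0.0019 and *Mdh2* from -0.0018 to 0.021. *Sdhc* ran from -0.0028 to 0.071, *Pdk3* from -0.11 to 0.0038 and *Idh1* from -0.014 to 0.091. Ratios that turned ranged, without 1 mouse, from -0.016 to 0.017 for *Idh3b* to *Idh3a*, -0.015 to 0.017 for *Pdha1* to *Pdhb*, -0.0065 to 0.090 for *Idh1* to *Idh2*, -0.014 to 0.017 for *Got1* to *Got2* and -0.0090 to 0.058 for *Mpc1* to *Mpc2*, and in the high RIN class were -0.0044 for *Pdha1* to *Pdhb* and -0.038 for *Idh1* to *Idh2*. All 32 genes lay far above the detection limit, and 5 mice a group limit the precision.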
